A study of Mus musculus with 5 samples.

Results

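Type A intercalated cells of the mouse kidney collecting duct were described in 4 droplet single-cell libraries of a model in which 1 ureter is obstructed and later released (reversible unilateral ureteric obstruction, UUO). Cells were taken as type A when they held at least 3 unique molecular identifiers (UMIs, counted RNA molecules) of the intercalated proton pump genes Atp6v1g3 and Atp6v0d2 together, and at least 1 UMI of Slc4a1 and Aqp6 together, outnumbering those of the type B gene Slc26a4. They could hold no UMI of the leukocyte gene Ptprc, at most 1 of the endothelial gene Egfl7 and at most 2 of the thick ascending limb gene Slc12a1. The rule found 148 of 13823 kept cells, out of 16876 deposited ones. A cell was kept with 200 or more genes detected and no more than 50% of its UMIs from mitochondrial genes. They were 15 of 3933 cells in the sham library, 50 of 2207 at UUO day 2, 43 of 4447 at UUO day 7 and 40 of 3236 in the reversed UUO library. Since measured values of these 8 genes chose the cells, the levels of the 8 genes are given as a description and were not tested.

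The sham library stood for day 0, and the reversed library was taken 7 days after release, on experimental day 14. All came from C57/BL6 mice aged 8 weeks, without any transgene or drug named in the labels, and the kidneys of 3 mice were pooled for each library. Tissue was dissociated by cold digestion, and sorting with the dye DAPI selected live cells. With 1 library for each condition, no test between conditions was possible, and every interval on a share or a ratio between conditions covers counting error only.

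The collecting duct consists mainly of principal cells, which reabsorb sodium and water, and of intercalated cells, which handle acid and base. Type A intercalated cells secrete protons into the urine through an apical vacuolar proton pump (V-ATPase), and return bicarbonate to the blood through the basolateral exchanger Slc4a1 (AE1). Type B cells carry the chloride/bicarbonate exchanger Slc26a4 (pendrin) instead, and the transcription factor Foxi1 is required for both kinds. Intercalated cells are also known for their part in defence against urinary infection.

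The promoters of 3 genes are shown because all 3 are defining genes of intercalated cells and hold the letters TGTTTNC, a form of the forkhead core motif to which factors such as Foxi1 bind, in the 250 bases before the start of transcription. Sequences are from RefSeq on GRCm38.p6, 5′ to 3′ on the strand of the gene, with the match on either strand in capitals (GNAAACA is the reverse strand form). They span chr1:138273488-138273737 on the plus strand for Atp6v1g3, chr6:83742767-83743016 on the plus strand for Atp6v1b1 and chr11:34208090-34208339 on the minus strand for Foxi1.
Atp6v1g3: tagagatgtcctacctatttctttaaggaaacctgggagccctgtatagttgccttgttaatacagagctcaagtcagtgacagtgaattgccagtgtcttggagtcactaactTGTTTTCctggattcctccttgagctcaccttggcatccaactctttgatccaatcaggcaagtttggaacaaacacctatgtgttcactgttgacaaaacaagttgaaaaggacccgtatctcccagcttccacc
Atp6v1b1: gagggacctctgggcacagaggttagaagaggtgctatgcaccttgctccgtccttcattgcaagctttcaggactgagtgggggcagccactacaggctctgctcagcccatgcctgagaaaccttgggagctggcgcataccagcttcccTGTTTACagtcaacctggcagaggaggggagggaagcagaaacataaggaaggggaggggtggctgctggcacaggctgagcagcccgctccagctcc
Foxi1: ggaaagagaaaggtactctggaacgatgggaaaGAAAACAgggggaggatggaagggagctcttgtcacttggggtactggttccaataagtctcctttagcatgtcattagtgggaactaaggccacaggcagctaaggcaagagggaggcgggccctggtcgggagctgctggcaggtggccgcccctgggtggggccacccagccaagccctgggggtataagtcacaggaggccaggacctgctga
The match began 136 bases before the start in Atp6v1g3, 98 in Atp6v1b1 and 217 in Foxi1. Of 16 windows of 14 intercalated and type A genes 4 (25%) held the letters, the other being 1 of the 2 windows of Adgrf5, against 5859 of 32851 promoter windows of the same length (17.8%). Another 5 genes of the same lists had no window and are not in these counts. These matches are descriptions of sequence and not binding sites.

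The label was checked on type A genes outside the rule, first in the UMIs summed over the members of each library. Kit, a receptor tyrosine kinase found in type A cells, had 492 CPM (UMIs of the gene scaled to 1000000 UMIs of the class) in the sham members, 329 at day 2, 472 at day 7 and 565 in the reversed library. Dmrt2, a transcription factor of type A cells, had 203, 164, 194 and 249 CPM in the same order. The adhesion receptor Adgrf5, which endothelium also expresses, had 1186, 878, 938 and 869 CPM, and Foxi1 had 395, 602, 367 and 374 CPM. Slc26a7 and Clnk, further type A genes, were too low to test, with at most 4 and at most 12 UMIs in any library. Each of the values of Kit, Dmrt2, Adgrf5 and Foxi1 in these cells was above that of the principal cells of every library, as the plot of identity genes shows. Cell by cell, 137 of the 148 members held a UMI of Kit or Dmrt2. The other 11 held neither (7 at day 2, 2 at day 7 and 2 in the reversed library), and 3 of them had no UMI of Adgrf5 either.

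The cells were not all alike. One cell of the reversed library stood apart: it held 47857 UMIs and 7869 genes, 5.07 times the median UMIs of that library's members and 11.6% of all their UMIs. It sat on the edge of the rule, with 2 UMIs of Atp6v1g3, 1 of Atp6v0d2 and 1 of Slc4a1, and it had 0 of Aqp6, Kit, Dmrt2, Adgrf5, Foxi1 and Atp6v1b1. It held 217 UMIs of the contractile gene Tagln, 139 of Igfbp2, 139 of the mesenchymal filament Vim, 73 of the matrix gene Sparc and 10 each of Wt1 and Ncam1. Of epithelial genes it held 6 UMIs of Epcam, 1 of Cdh1, 1 of Krt18 and 0 of Krt8, and it held 181 of Spp1. Among the genes looked at, those of type A cells and of mesenchyme go against its label as a type A cell. Reversed values are with this cell unless said otherwise. Without it the reversed level was 983 CPM for Adgrf5, 423 for Foxi1, 712 for Atp6v1b1, 663 for B2m, 262 for Oxgr1, 150 for Slc4a9, 126 for Edn3 and 60.0 for Sult1d1, and each of these genes then took another place in the order of the 4 libraries. In the sham library 1 cell held 15.9% of the members' UMIs and 347 UMIs of the principal cell genes Aqp2 and Hsd11b2 together. In all, 13 of the 148 cells had 3 or more UMIs of those 2 genes (2 in sham, 3 at day 2, 5 at day 7 and 3 in the reversed library). The type B gene Slc26a4 was found in 9 members (2, 4, 1 and 2 by library), with up to 8 UMIs in a sham cell and 7 in a day 2 cell, and 3 of the 4 at day 2 held no Kit or Dmrt2. These 9 cells met the rule and were kept in the comparison with type B cells.

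Few cells sat at the limits of the rule. Exactly 3 proton pump UMIs were held by 2 members, and 9 cells that met every other condition held 2. A single UMI of Slc4a1 and Aqp6 together was held by 8 members, and 1 cell, that of 47857 UMIs, sat at both limits. By library the median of the 2 pump genes together was 31 UMIs a cell in sham, 58.5 at day 2, 34 at day 7 and 41.5 in the reversed library, and that of Slc4a1 and Aqp6 together was 18, 12.5, 11 and 6.5 UMIs. Another 59 cells met the pump condition with no UMI of Slc4a1, Aqp6 or Slc26a4, and could be put in neither type. No cell barcode was a type A cell in 2 libraries, and each pair of libraries shared 16 to 39 barcodes among all deposited cells.

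**Figure D1:**
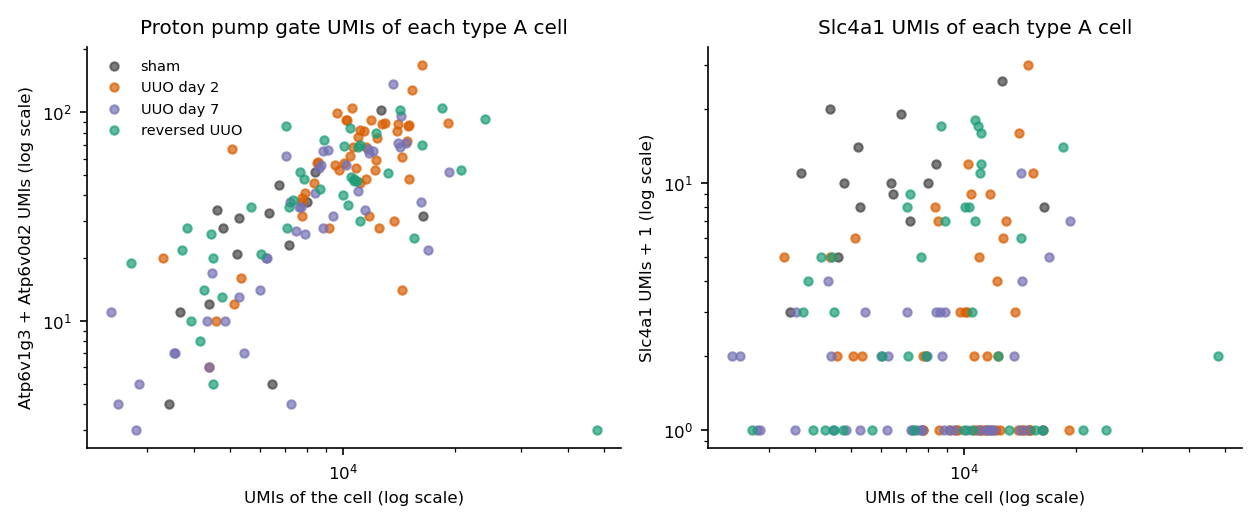
Each point is 1 of the 148 type A cells, coloured by library, against the UMIs of the cell on log axes. The left panel shows Atp6v1g3 and Atp6v0d2 UMIs together and the right panel shows Slc4a1 UMIs + 1; the cell of 47857 UMIs in the reversed library lies far to the right with 3 pump UMIs.

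Depth differed between libraries and has to be read beside every level. The members held 103680 UMIs in sham, 543364 at day 2, 371020 at day 7 and 414252 in the reversed library, with medians of 6364, 11027.5, 7946 and 9442 UMIs and 2293, 3269, 2825 and 3112 genes a cell. Sham members had a median of 26.4% mitochondrial UMIs, against 12.4%, 12.5% and 13.1% in the other libraries. A limit of 20% would leave only 2 sham members. Endothelial gate cells, chosen by at least 3 Egfl7 UMIs and no UMI of Ptprc, Atp6v1g3 or Atp6v0d2, are set beside the type A cells below. They were shallower than the members, with medians of 2464, 4374, 3629 and 3964 UMIs a cell, and their CPM has to be read beside this. Their median mitochondrial shares were 2.52 to 4.26%.

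Type A cells made up a larger share of the kept cells in each obstructed or released kidney library than in sham. The share was 0.381% in sham (exact Clopper-Pearson 95% interval 0.214 to 0.628), 2.27% at day 2 (1.69 to 2.98), 0.967% at day 7 (0.701 to 1.30) and 1.24% in the reversed library (0.885 to 1.68). The sham interval overlapped none of the other 3. With a limit of 20% mitochondrial UMIs it was 0.0374 to 1.11, on 2 sham members, and overlapped those of day 7 (0.465 to 0.994) and of the reversed library (1.06 to 2.17). Against all kept cells the share moves with how many other cells each digest released, so it was also taken within the collecting duct. Of type A and type B cells together, type A cells were 35.7% in sham (21.6 to 52.0), 44.2% at day 2, 57.3% at day 7 (45.4 to 68.7) and 53.3% in the reversed library (41.4 to 64.9). Here the intervals of sham and of the other libraries overlapped. Of type A, type B and principal cells together they were 14.9% (8.56 to 23.3), 30.5% (23.5 to 38.1), 25.9% (19.4 to 33.3) and 30.1% (22.4 to 38.6), and the day 2 interval began just above the end of that of sham. Which intervals lay apart from sham changed with the choice of cells. With the highest Scrublet doublet scores left out day 2 (23.3 to 37.9) overlapped sham (8.74 to 23.8), with cells thinned to 1000 UMIs both day 2 (19.0 to 36.3) and day 7 (21.6 to 39.9) lay above sham (4.84 to 18.7), and with the limit of 20% mitochondrial UMIs day 2 (28.8 to 46.8) and the reversed library (28.8 to 51.0) lay above sham (0.984 to 26.0). With the rule applied to cells thinned to 1000 UMIs each, the shares of kept cells were 0.229%, 1.36%, 0.720% and 0.742%, again lowest in sham and highest at day 2.

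**Figure D2:**
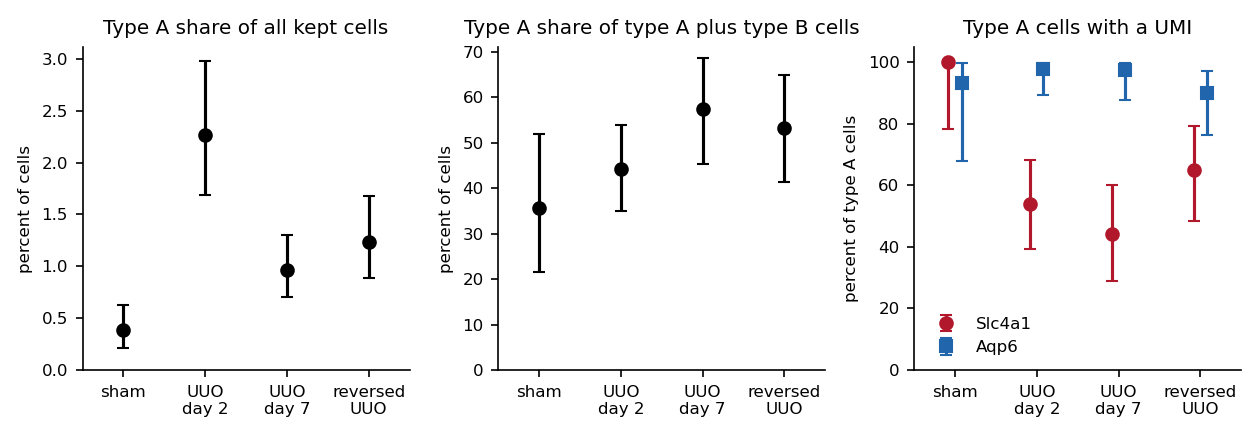
Shares by library with exact 95% Clopper-Pearson intervals as bars: type A cells of all kept cells, type A cells of type A and type B cells together, and type A cells with a UMI of Slc4a1 or of Aqp6 (all in percent). The sham share of 0.381% of kept cells is below the other 3, and the share of members with Slc4a1 is 100% in sham and 44.2% at day 7.

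The genes that chose the cells took different courses. Slc4a1 had 1514 CPM in the sham members, 259 at day 2, 124 at day 7 and 410 in the reversed library. Sham was highest and day 7 lowest. It was 5.84-fold lower at day 2 than in sham and 3.31-fold higher in the reversed library than at day 7. Every sham member held a Slc4a1 UMI (100%, 78.2 to 100), against 54% at day 2 (39.3 to 68.2), 44.2% at day 7 (29.1 to 60.1) and 65% in the reversed library (48.3 to 79.4). After thinning to 1000 UMIs a cell these shares were 66.7%, 24%, 11.6% and 40%, and in endothelial gate cells 0%, 0%, 0% and 0.781% before thinning.

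Aqp6, a water and anion channel of acid secreting vesicles, had 1177, 1047, 1307 and 548 CPM. Day 7 was the highest and the reversed library the lowest. Aqp6 was seen in 93.3%, 98%, 97.7% and 90% of members. Of all 148 cells, 80 held both genes, 7 held Slc4a1 alone and 61 held Aqp6 alone. Since the rule asks for either gene, a cell that had lost both would not be found. A gate on Kit and Dmrt2 in place of Slc4a1 and Aqp6, with the other conditions kept, chose 14, 46, 57 and 47 cells. Of these, 14, 43, 41 and 38 were members already, so the 2 sets of values are not independent. In the cells of that gate Slc4a1 was at 1450, 270, 91.2 and 389 CPM and was present in 100%, 56.5%, 31.6% and 51.1% of cells. Slc4a1 lies at 11:102348824-102366203 on the minus strand and Aqp6 at 15:99601400-99605477 on the plus strand (GENCODE vM21).

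Against principal cells, type A cells differed in 819 of 5547 tested genes. UMIs were summed by class and library and compared over the 4 libraries with edgeR's quasi-likelihood test, library being a block, with Benjamini-Hochberg adjustment at 0.05. In type A cells 386 genes were higher (6.96%) and 433 were lower (7.81%), among genes other than those of the gates. The cells of both classes were chosen by their own gate genes, so a difference in genes that follow the gates is built into the choice. Without the cell of 47857 UMIs the counts were 415 higher and 474 lower.

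Among the genes highest over principal cells was Kit, which had 0 to 2.3 CPM in principal cells and a log2 fold change of 8.31 ± 0.35 (SE, adjusted p = 4.793e-09, edgeR's quasi-likelihood test), higher in 4 of 4 libraries. Foxi1 was between 3.24 and 9.14 CPM in principal cells, and its log2 fold change was 5.92 ± 0.28 (adjusted p = 5.681e-09, edgeR). Adgrf5 differed by 6.61 ± 0.35 and Dmrt2 by 6.26 ± 0.41. Edn3, which encodes endothelin-3, a peptide ligand, had 67.5, 120, 197 and 113 CPM in the type A cells and no UMI in the principal cells of any library. Pdlim3, a cytoskeletal adaptor, likewise had no UMI in principal cells and 28.9 to 180 CPM in type A cells, and the fitted folds of both are no bounds. The receptors P2ry14 (UDP-glucose), Avpr1a (vasopressin) and Ptger3 (prostaglandin E2) were higher by 5.88 ± 0.34, 5.78 ± 0.43 and 5.69 ± 0.51, each in 4 of 4 libraries. P2ry14 is known in intercalated cells as a sensor that leads to neutrophil recruitment. Hepacam2, a cell adhesion gene, was higher by 5.82 ± 0.36, Rcan2, a calcineurin regulator, by 5.77 ± 0.34 and the actin regulator Eps8 by 5.50 ± 0.25.

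The proton pump set the classes apart in most of its measured parts. Of the V1 subunits, the cytosolic sector that hydrolyses ATP, 7 of the 10 tested outside the rule were higher in type A cells and none lower (median log2 fold change 1.19, against -0.02 over all genes tested). Atp6v1c2 had 579, 236, 248 and 352 CPM in type A cells and at most 6.86 in principal cells, a difference of 6.04 ± 0.29. Atp6v1b1, the B subunit whose loss causes renal tubular acidosis, had 685, 525, 526 and 630 CPM against 152, 70.7, 122 and 123, a difference of 2.28 ± 0.19 (adjusted p = 1.273e-06, edgeR). Atp6v1d differed by 2.37 ± 0.18. Of the membrane V0 subunits and accessory proteins 5 of 7 were higher and 1 lower (median 1.44). Atp6v0a4 was higher by 2.00 ± 0.18 and the accessory Atp6ap1 by 2.01 ± 0.18, while Atp6v0d1, the widely expressed form of the subunit whose renal form is in the rule, was lower (-0.92 ± 0.21, adjusted p = 0.006759, edgeR). Of 7 tested genes for assembly and traffic of the pump 3 were higher, among them Ncoa7 (3.40 ± 0.21) and Dmxl1 (2.38 ± 0.19).

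Transport of acid and base showed both directions, with 8 of 17 tested genes higher and 4 lower than in principal cells (median 0.16). Car2, the cytosolic carbonic anhydrase, had 1968, 2122, 3065 and 2607 CPM in type A cells and was higher by 1.99 ± 0.31. The membrane carbonic anhydrase Car12 was higher by 2.92 ± 0.20. The basolateral ammonia transporter Rhbg was higher by 2.34 ± 0.38 (adjusted p = 0.0005018, edgeR), whereas its apical relative Rhcg did not pass the test (-0.08 ± 0.22, adjusted p = 0.8822, edgeR). Lower were the potassium channels Kcnj10 (-3.58 ± 0.33) and Kcnj16 (-2.81 ± 0.30). Slc4a9, a basolateral exchanger better known from type B cells, had 145, 133, 40.4 and 133 CPM in type A cells and no UMI in principal cells of 3 libraries.

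Genes of principal cells were lower, and the 2 genes that chose those cells are not among them. Of 8 tested principal markers outside the gates 7 were lower (median -2.54). The apical potassium channel Kcnj1 differed by -4.42 ± 0.31 and the vasopressin receptor Avpr2 by -3.69 ± 0.46, each in 4 of 4 libraries. The sodium channel subunit Scnn1g had 19.3 to 77.2 CPM in type A cells and 220 to 360 CPM in principal cells, and 1 cell gave 87.5% of its sham UMIs in type A cells. Kl, which encodes klotho, a co-receptor of a phosphate hormone, had 154, 27.6, 21.6 and 62.8 CPM in type A cells against 1450, 158, 393 and 1132 CPM in principal cells, and 81.2% of its sham UMIs came from 1 type A cell. Nuclear genes for mitochondrial metabolism stood on the other side: 13 of 30 respiratory chain genes and 7 of 17 genes of the tricarboxylic acid cycle were higher and none lower (medians 0.53 and 0.53). Cycs, cytochrome c, was higher by 1.31 ± 0.18 and Mdh1, malate dehydrogenase, by 0.97 ± 0.17, each in 4 of 4 libraries. None of the 13 genes encoded in mitochondria and none of 13 glycolysis genes passed the test.

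Injury genes were mostly lower than in principal cells, with 9 of 17 tested lower and 1 higher (median -0.87). Clu, a secreted chaperone of injured tubules, differed by -2.11 ± 0.22 (adjusted p = 1.014e-05, edgeR's quasi-likelihood test). Lcn2, an iron-binding defence and injury protein, had 38.6, 409, 380 and 268 CPM in type A cells against 94.0, 3690, 1261 and 846 CPM in principal cells. In type A cells 1 cell gave 60.3% of the Lcn2 UMIs of day 7 and 1 gave 57.7% of those of the reversed library, and without these the values were 159 and 118 CPM. Spp1, osteopontin, did not pass (0.69 ± 0.43, adjusted p = 0.3605, edgeR), being higher in type A cells in 2 libraries and lower in 2. Pigr, the transporter of secreted immunoglobulin, was higher by 2.21 ± 0.56 (adjusted p = 0.01518, edgeR) in 3 of 4 libraries.

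Kit, Dmrt2, Adgrf5 and Mme were among the genes that differed between type A and type B cells. Of 4877 tested genes 70 were higher in type A cells (1.44%) and 111 lower (2.28%) by the same edgeR test. Kit had 492, 329, 472 and 565 CPM against 21.2, 21.9, 37.8 and 15.99 CPM in type B cells, a difference of 4.11 ± 0.24 (adjusted p = 3.942e-07, edgeR). Dmrt2 differed by 4.27 ± 0.39 and Adgrf5 by 2.96 ± 0.36. Mme, the membrane peptidase neprilysin, had 685, 501, 372 and 536 CPM against 4.24, 46.7, 64.0 and 29.3 CPM, a difference of 3.61 ± 0.35 (adjusted p = 2.002e-05, edgeR). Both sets of 4 values lay far apart for Kit and for Mme.

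Of 8 tested innate defence genes 1 was higher in type A cells than in type B cells. This was Defb1, an antimicrobial defensin, which had 2392, 3721, 3738 and 2593 CPM against 309, 1930, 1185 and 461 CPM in type B cells (1.89 ± 0.27, adjusted p = 0.0007248, edgeR). The small heat shock protein Cryab was higher by 2.55 ± 0.33, the glucose transporter Slc2a1 by 1.23 ± 0.23, the monocarboxylate transporter relative Slc16a11 by 3.14 ± 0.37 and Rhbg by 1.24 ± 0.30. Tmem158, a membrane protein, had 57.9, 425, 561 and 249 CPM in type A cells and 0, 68.6, 87.3 and 48.0 CPM in type B cells, and 1 cell gave 66.7% of its sham UMIs. Edn3 was higher by 1.49 ± 0.24.

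Genes lower than in type B cells included those known from that type. Hmx2, a homeobox factor, had 77.2, 82.8, 0 and 12.1 CPM against 822, 677, 530 and 1061 CPM (-4.51 ± 0.47), and 1 type A cell gave 75% of its sham and 46.7% of its day 2 UMIs. Insrr, a receptor that senses alkaline pH, differed by -4.01 ± 0.29, Car15 by -3.02 ± 0.24, Car12 by -1.40 ± 0.22 and Slc4a9 by -1.56 ± 0.23. The rule's list of largest differences also named Ank, a pyrophosphate transporter (-5.21 ± 0.54), the adhesion genes Lsamp (-4.74 ± 0.48) and Chl1 (-3.81 ± 0.55) and Syt7, a calcium sensor of vesicle release (-4.33 ± 0.47). Spp1 was lower in type A cells in 4 of 4 libraries (-0.82 ± 0.20, adjusted p = 0.03525, edgeR).

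Of 10 tested markers of intercalated cells of either type, 1 was higher in type A cells and 3 were lower (median -0.11). None of 10 tested V1 subunits was higher in type A cells and 2 were lower, Atp6v1c2 (-0.80 ± 0.18) and Atp6v1h (-0.68 ± 0.17), and of 7 V0 and accessory genes 1 was lower, Atp6ap2 (-0.69 ± 0.16). Atp6v1h (-0.63) did not pass without the cell of 47857 UMIs. The medians were -0.10 and -0.23, against 0.01 over all genes. Foxi1 (-0.19 ± 0.17, adjusted p = 0.6716), Atp6v1b1 (0.24 ± 0.16, adjusted p = 0.5437) and Oxgr1, the receptor for 2-oxoglutarate (0.35 ± 0.18, adjusted p = 0.3807), did not pass edgeR's test. Among 30 respiratory chain genes none was higher and 1 was lower, and 3 of 16 injury genes were lower with none higher.

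**Figure D3:**
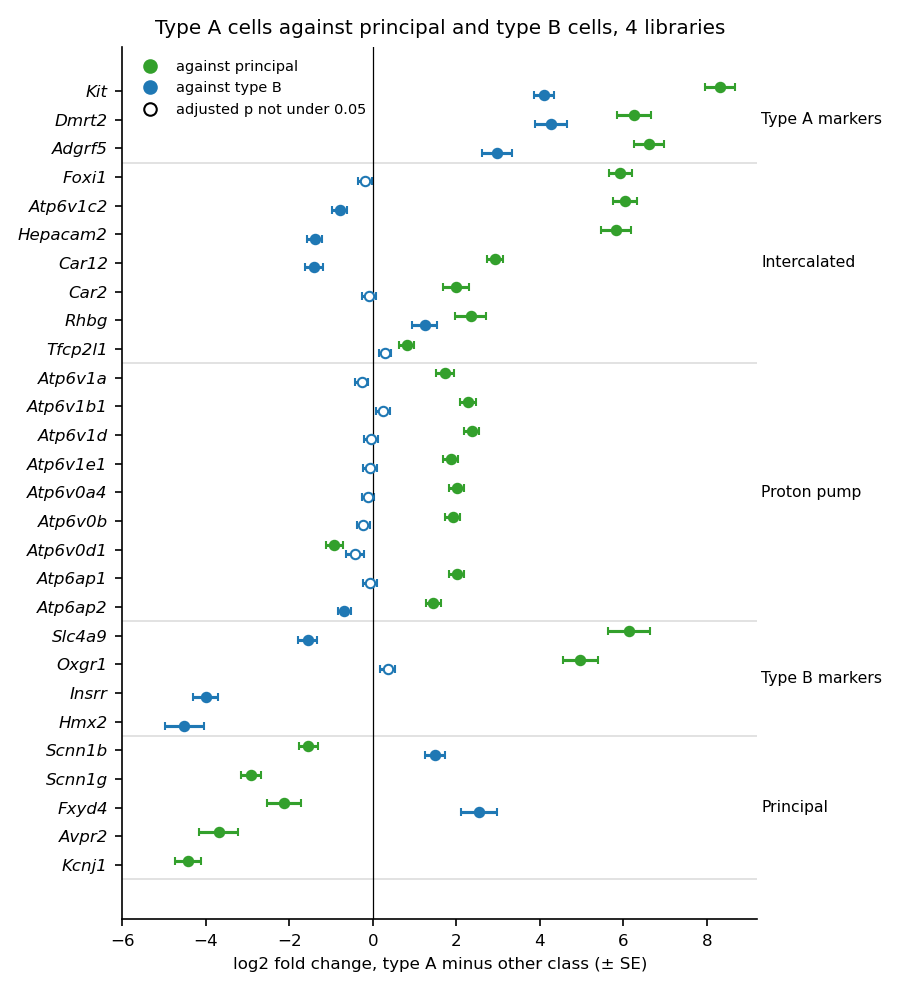
Log2 fold change ± SE of named genes in type A cells against principal cells (green) and against type B cells (blue), edgeR over 4 libraries with library as block; open symbols have an adjusted p of 0.05 or more. Kit, Dmrt2 and Adgrf5 are higher than in both, while Foxi1 and Atp6v1b1 are filled against principal cells and open against type B cells.

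Between conditions the rule for a difference was a CPM ratio past 2-fold among genes with at least 30 UMIs over both libraries, and the ratios were not tested. Ratios are given as log2 of CPM + 1 with a 95% interval from the counts. Because the sham members held few UMIs, a gene often reached 30 UMIs only through the other library, where it then had to be high. This bears on the split of every comparison with sham. At day 2 against sham 447 of 3060 genes were higher (14.6%) and 110 lower (3.59%), with a median log2 ratio over all genes of 0.18. With totals taken without mitochondrial UMIs the split was 342 higher and 201 lower and the median -0.03. The comparisons of day 2 and of the reversed library with sham share the sham cells, and neighbouring comparisons share a library.

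Spp1 and Clu, both on the list of injury genes, were higher at day 2 than in sham. Spp1 had 1408 CPM in sham members, 48244 at day 2, 24468 at day 7 and 5084 in the reversed library, 34.3-fold higher at day 2 than in sham (log2 ratio 5.10, 4.86 to 5.34). All 50 members of day 2 held it. Day 2 was highest and sham lowest, and each step between neighbouring libraries was beyond counting error. Spp1 in type B cells ran 2160, 98236, 39973 and 7663 CPM and in principal cells 1962, 10395, 7899 and 6362 CPM. It was also seen in endothelial gate cells, at 116, 3228, 3081 and 1264 CPM. A profile of all barcodes of each library, scaled so that proximal tubule markers summed to 0 in the type A cells, was subtracted as an estimate of free RNA, and the day 2 ratio of Spp1 was then 5.16.

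Clu had 125, 3975, 2216 and 1349 CPM, 31.7-fold higher at day 2 than in sham (log2 ratio 4.98, 4.20 to 5.88). Plac8 had no UMI in sham members and 561, 402 and 188 CPM afterwards, which is at least 19.4-fold higher at day 2 against a floor of 3 UMIs in the sham library. It was found in 40 of the 50 day 2 cells, at 579 CPM in type B and 54.1 CPM in principal cells of day 2. Pigr had 1 UMI in sham (9.65 CPM) and 276, 205 and 74.8 CPM in the others (day 2 against sham log2 4.70, 2.32 to 7.81). In principal cells Pigr had 6.24 CPM at day 2, and in type B cells 322 CPM. Lcn2 had 4 sham UMIs, all in 1 cell, and was 10.6-fold higher at day 2 (log2 3.37, 2.02 to 5.17). At day 2 it was found in 30 of 50 cells, but 3 cells held 72, 58 and 35 of its 222 UMIs and no other held more than 8. S100a6 had no UMI in sham and 582 CPM at day 2, of which 61.1% came from 1 cell. Endothelial gate cells had 208, 342, 506 and 485 CPM of Plac8, 217, 584, 683 and 290 CPM of Clu, and 0, 135, 182 and 42.3 CPM of Lcn2, whereas Pigr was between 2.41 and 14.6 CPM there. After the subtraction of free RNA the day 2 ratios were 4.98 for Clu and 4.74 for Pigr. Of the 25 injury genes 10 had no UMI in sham and 1 none at day 2. The list's 16 genes with enough UMIs include 8 with under 10 in sham, which had to be high at day 2 to be counted, so no count of higher genes is drawn from the list. Leukocyte markers together were at 106 CPM in sham and 911 at day 2 in type A cells, and at 205 and 721 CPM in endothelial gate cells; their part in these differences was not tested.

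The injury list also held Krt7, Krt18, Krt8 and Cldn4. Krt7, a keratin of simple epithelia, had 125, 480, 426 and 282 CPM, Krt18 had 116, 276, 356 and 292 CPM, and Krt8 had 77.2, 245, 194 and 138 CPM. The claudin Cldn4 had 38.6, 307, 197 and 167 CPM. In each of these 4 genes the sham value was the lowest, on 4 to 13 sham UMIs, so that each reached 30 UMIs only through the other library. All 4 sham UMIs of Cldn4 came from 1 cell. For Krt18 1 cell gave 75% of the sham UMIs, and without it the sham value was 34.4 CPM.

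Most innate and interferon genes were too low in sham to compare. Of 29 innate defence genes 15 had no UMI in sham and 7 had enough UMIs over both libraries, 5 of them with under 10 in sham. Of 23 interferon and MHC class I genes 14 had no UMI in sham and 5 had enough, 2 of them with under 10 in sham. Ifitm3, an antiviral membrane protein, had 9.65, 232, 358 and 261 CPM, with 1 UMI in sham. The MHC class I genes B2m and H2-D1 had 96.5, 401, 671 and 736 CPM and 106, 344, 585 and 531 CPM. For B2m the reversed and day 7 values did not differ beyond counting error. Endothelial gate cells had 2568 to 3395 CPM of Ifitm3 and 3337 to 4848 CPM of B2m.

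**Figure D4:**
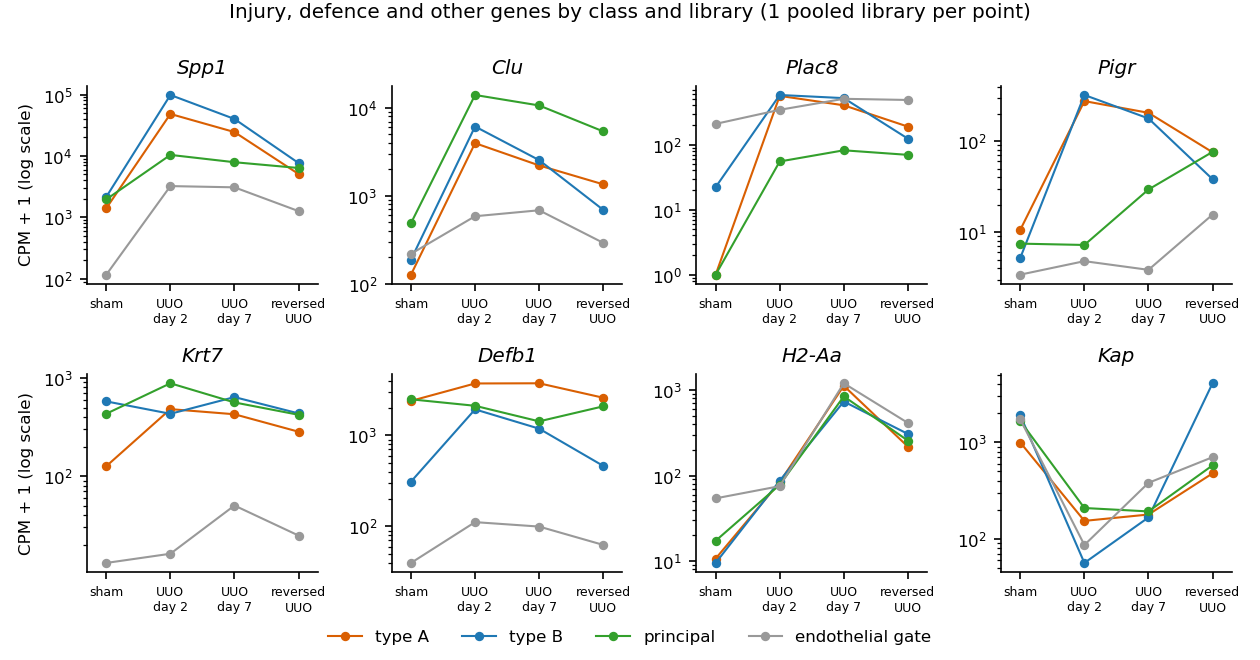
CPM + 1 (log axis) of 8 genes in type A, type B, principal and endothelial gate cells by library, 1 pooled library for each point. Spp1, Clu, Plac8 and Pigr in type A cells are highest at day 2 and lower in the reversed library, while H2-Aa peaks at day 7 in type A and endothelial gate cells alike and Kap is a proximal tubule gene.

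Of the pump subunits with enough UMIs, Atp6v1c2 and Atp6ap2 were past 2-fold at day 2, both lower than in sham. None of the 11 V1 subunits with enough UMIs (Atp6v1g3 of the rule among them) was past 2-fold higher at day 2 and 1 was lower (median 0.01), Atp6v1c2 at -1.29 (-1.75 to -0.83). Of 7 V0 and accessory genes (Atp6v0d2 of the rule among them) none was higher and 1 was lower (median 0.01), Atp6ap2, which had 675, 258, 288 and 381 CPM (day 2 against sham -1.39, -1.81 to -0.95). Kit was at -0.58 (-1.03 to -0.10), Adgrf5 at -0.43 (-0.72 to -0.14) and Foxi1 at 0.60 (0.13 to 1.11). Oxgr1 had 530, 236, 170 and 232 CPM (day 2 against sham -1.17, -1.63 to -0.69). None of 30 respiratory chain genes was past 2-fold (median -0.17), and 3 of 12 genes encoded in mitochondria were lower (median -0.91), where sham members had the higher mitochondrial share noted above.

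Gate genes and markers of other cells were left out of the ranked genes. Markers of principal cells and of the proximal tubule went as low as -6.17 and -3.75 at day 2. Among the ranked genes the largest decrease was that of Sult1d1, a sulfotransferase, with 386, 57.1, 21.6 and 53.1 CPM (log2 -2.74, -3.45 to -2.03). It was found in 11 of 15 sham members and 19 of 50 at day 2, and other kept cells had 547 CPM in sham and 159 at day 2. For each of the other 7 decreases the sham member with the most UMIs of that gene was taken, which need not be the same cell. It gave 81.2% of the sham UMIs of Kl, 79.3% of Gstm2, 55.6% of Pdcd4, 50% of Nav1, 45.8% of Hist1h2bc, 30.8% of Kctd12 and 19.0% of Arhgap24.

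Day 7 against day 2 gave 138 of 4205 genes higher (3.28%) and 119 lower (2.83%), a split that turned to 112 higher and 148 lower under TMM scaling. The 8 named increases were the MHC class II genes H2-Eb1, H2-Aa, H2-Ab1 and H2-DMb1, and Apoe, Ifi27l2a, Ctss and Igkc. H2-Aa had 9.65, 82.8, 1127 and 217 CPM, 13.6-fold higher at day 7 than at day 2, but endothelial gate cells had 53.1, 74.2, 1205 and 413 CPM. Apoe went from 134 to 2086 CPM and in endothelial gate cells from 464 to 2525 CPM. The 14 leukocyte markers together had 106, 911, 5108 and 1352 CPM in type A cells, with 10, 3, 3 and 1 of them at 0, and 205, 721, 5088 and 1994 CPM in endothelial gate cells. H2-Eb1 went from 40.5 to 1054 CPM and Ctss, a lysosomal protease, from 27.6 to 237 CPM, or 150 CPM without 1 cell that gave 39.8% of its day 7 UMIs. With the free RNA profile subtracted, H2-Aa, H2-Eb1 and Ctss had no UMI left in either library (log2 ratio 0), the profile being that of all deposited cells, leukocytes included.

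The 8 named decreases from day 2 to day 7 were Klk1, Gpx3, S100g, Cp, Fabp3, S100a6, Mt1 and Pim3. Klk1, kallikrein, had 550, 429, 27.0 and 176 CPM, 15.9-fold lower at day 7 than at day 2. Gpx3, the secreted glutathione peroxidase, had 3520, 3134, 283 and 1523 CPM, and S100g, calbindin-D9k, had 1302, 3948, 407 and 835 CPM. Day 7 was the lowest library for all 3. In sham 1 cell gave 68.4% of the Klk1 UMIs and 1 gave 68.9% of those of S100g, and without it the sham values were 198 and 432 CPM. For S100g 1 cell also gave 58.1% of the reversed UMIs, and without it the reversed value of 372 CPM was below that of day 7. In endothelial gate cells Gpx3 was at 4235 CPM in sham and 806 at day 2, and proximal tubule markers together had 2527, 460, 302 and 958 CPM in type A cells and 4095, 352, 765 and 1674 CPM in endothelial gate cells. Sox4, a developmental transcription factor, was higher at day 7, with 241, 232, 472 and 316 CPM (log2 1.02 against day 2, 0.68 to 1.36). Of 17 injury genes 2 were past 2-fold higher and 2 lower (median -0.17), and of 9 interferon genes 4 were higher (median 0.76, and -0.06 after the subtraction of free RNA). Over all genes 138 of 4205 (3.28%) were past 2-fold higher. Ifi27l2a, with 12 UMIs at day 2 and 79 at day 7, reached the limit on UMIs only through day 7. The count of higher interferon genes is therefore not read as a change of the list.

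In the reversed members Spp1, Clu and Plac8 lay below day 7 and above sham. Against day 7, 157 of 3914 genes were higher (4.01%) and 92 lower (2.35%), while TMM scaling gave 114 higher and 132 lower. Without the cell of 47857 UMIs 98 of 3634 genes were higher and 98 lower. Igfbp2, Tagln, Cald1, Vim and Hist1h2ap were among the 8 named increases, but that cell held 99.3%, 99.5%, 85.7%, 95.2% and 93.3% of their UMIs in the reversed members. Without it Vim was lower than at day 7 (log2 -1.38).

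Spp1 was 4.81-fold lower than at day 7 (log2 -2.27, -2.34 to -2.20) and at -2.22 without that cell, and Plac8 was at -0.97 without it. Against sham Spp1 was 3.61-fold higher (1.85, 1.61 to 2.10) and Clu 10.8-fold higher (3.42, 2.64 to 4.33). Plac8 was at least 6.51-fold higher than in sham. Against sham, 422 of 2671 genes were higher (15.8%) and 63 lower (2.36%), with a median of 0.27, and with totals without mitochondrial UMIs 294 were higher and 137 lower. Of 17 injury genes with enough UMIs 9 had under 10 in sham, so that no count of higher genes is given for this list either.

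The immediate-early genes Egr1, Jun, Fos and Klf6 were each at their highest in the reversed members. Egr1, a transcription factor induced within minutes, had 77.2, 33.1, 8.09 and 239 CPM, at 4.72 against day 7 (3.24 to 6.52) and 4.59 without the deepest cell, on 3 UMIs at day 7. Jun had 77.2, 232, 286 and 702 CPM, Fos 86.8, 116, 132 and 608 CPM and Klf6 38.6, 101, 127 and 331 CPM. All 9 sham UMIs of Fos came from 1 cell. Of the 22 immediate-early and heat shock genes 19 had enough UMIs, 3 of them with under 10 at day 7, so no count of higher genes is drawn from the list. In endothelial gate cells Jun had 379, 508, 666 and 1014 CPM and Egr1 26.5, 47.5, 113 and 172 CPM, also highest in the reversed library. Type B cells had 148, 228, 227 and 149 CPM of Jun, 254, 216, 253 and 112 CPM of Fos and 220, 124, 34.9 and 79.96 CPM of Egr1. There the reversed value of Jun and Fos was below that of day 7. The 22 immediate-early and heat shock genes together had 1755, 2431, 2957 and 4876 CPM in type A cells (4604 in the reversed library without the deepest cell), where the reversed library was highest, and 2419, 2832, 3108 and 2095 CPM in type B cells, where it was lowest. Principal cells had 2312, 5031, 3372 and 4387 CPM, highest at day 2 and higher in the reversed library than at day 7. Endothelial gate cells had 5017, 5928, 5821 and 7717 CPM, highest in the reversed library. Whether the classes differ in this was not tested. These genes are also known to respond to tissue digestion, and its part was not tested. Of 11 V1 subunits (Atp6v1g3 of the rule among them) none was past 2-fold against day 7 (median 0.19) or against sham (median -0.05).

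Leukocyte markers in the reversed members were lower than at day 7 in all 7 with enough UMIs (median -2.1). Over all genes 92 of 3914 (2.35%) were past 2-fold lower. Markers high at day 7 reached the limit more easily, though none of the 7 had under 10 UMIs in the reversed members. The sum of all 14 markers, taken without a limit on UMIs, was 5108 CPM at day 7 and 1352 CPM in the reversed members. This sum was lower in endothelial gate cells too. Stroma markers together had 0, 12.9, 80.9 and 256 CPM in type A cells, and the reversed value was 35.5 CPM without the deepest cell. The subtraction of free RNA removed 12.5%, 16.2%, 16.9% and 9.91% of the UMIs of type A cells.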

How the data were processed

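The authors deposited whole-number UMI counts for each gene and cell of 4 droplet libraries, made by the 10x 3′ method, version 2. Cell Ranger, STAR and the builds GRCm38 and mm10 are named in the submitters' processing notes, and versions, roles and cell calling are not given in the sources used here. A Smart-seq2 sample mixed all conditions and was not used here. Cells were kept with 200 or more genes and a mitochondrial share of UMIs no higher than 50%.

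The members, gates and gene lists were chosen with earlier results of these data known. Type B cells were gated like type A cells with Slc26a4 leading, and principal cells by at least 3 UMIs of Aqp2 and Hsd11b2, at most 1 of the pump genes and none of Slc4a1, Aqp6 or Slc26a4. Counts were summed for each class and library. Classes with at least 10 cells a library were compared with edgeR 4.0.16 in R 4.3.3 (TMM, quasi-likelihood F test, library as block), leaving out the gate genes, with DESeq2 1.42.0 as an alternative. The script was tested on simulated data. Ratios between libraries are log2 of CPM with 1 CPM added, which understates changes of low genes, with exact conditional binomial 95% intervals. A count of 0 was set at a floor of 3 UMIs in the library. UMIs are deduplicated molecules, but cells of 1 library share its preparation, so intervals cover counting error only. Genes named are members of the lists, the 8 largest increases and 8 largest decreases of each comparison among genes with 30 UMIs and 100 CPM, and for class tests the 15 largest positive and 10 largest negative differences of 1 sign in every library. Mitochondrial, ribosomal, haemoglobin and predicted genes and markers of other cells were left out of the ranked genes. H2 genes and others with near-identical copies are uncertain, since reads may be split between copies. Doublets were scored with Scrublet in scanpy 1.11.5. Its automatic threshold marked 1 to 3 cells a library and so had not worked, and leaving out the highest scores (0.8% per 1000 deposited cells) was run as an alternative, removing 3 members.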

Additional observations from a re-analysis of the deposited data

How the results depend on the processing

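The sham members hold 103680 UMIs, so genes absent there can only be given a bound. The share of type A cells was 1.36% at day 2 and 0.742% in the reversed library with the rule applied to cells thinned to 1000 UMIs, and 0.693% at day 7 with a limit of 20% mitochondrial UMIs. No paired analysis was possible because each condition has 1 pooled library, and the library served as the block in the class tests. Alternatives on the cells with 3 or more Aqp2 and Hsd11b2 UMIs and on the deepest reversed member were chosen after seeing the data.

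Against principal cells DESeq2 called 219 genes higher and 231 lower, and a fit with no library block 229 and 287. Leaving out each library in turn gave 228 to 356 higher and 273 to 417 lower, the lowest values being those without day 7. Against type B cells DESeq2 called 42 and 62, a fit with no library block 31 and 50, and one with no filter on low counts 158 and 264. Leaving out each library gave 38 to 88 higher and 64 to 128 lower, again lowest without day 7. The causes were not tested. Of the fitted values of listed and named genes under all alternatives, 5892 kept their call or lack of one, 218 lost a call and 151 gained one. No gene called in the main fit changed sign, and the signs of uncalled genes were not compared.

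With at least 10 UMIs in place of 30, more genes entered: 1308 were higher and 544 lower at day 2 against sham, 628 and 469 at day 7 against day 2, 697 and 428 in the reversed library against day 7, and 1615 and 317 against sham. With a pseudocount of 10 CPM day 7 against day 2 gave 82 and 71. Genes lower at day 2 than in sham numbered 305 with the limit of 20% mitochondrial UMIs and 201 with totals without them, and for reversed against sham 196 and 137. Genes higher in the reversed library than at day 7 numbered 102 with at least 5 pump UMIs, 99 with at least 2 Slc4a1 and Aqp6 UMIs, 101 without cells holding Aqp2 and Hsd11b2, and 98 without the deepest member. Against sham they numbered 278 with at least 2 Slc4a1 and Aqp6 UMIs.

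The sign of the ratio turned for few named values, and a turned sign is not a turned direction where a gene had no UMI. With the limit of 20% mitochondrial UMIs, where 2 sham members remain, Kctd12 was at 5.00 for day 2 and Klk1 at 7.15 for the reversed library against sham. Those 2 sham members held 16434 and 6772 UMIs, and no UMI of Kctd12 or Klk1. The size of both ratios is therefore set by the 1 CPM added, and no change is read from either. With all members the principal marker median against sham was -1.66 at day 2 and -1.78 in the reversed library, and Gstm2 was at -1.88 at day 2. Without members holding 3 or more Aqp2 and Hsd11b2 UMIs the medians were 0.37 and 0.0073, and Gstm2 was at 0.22. With free RNA subtracted Igkc was at -2.91 between day 2 and day 7. In the reversed library against day 7, the stricter pump gate gave -0.028 for Hist1h2ap, -0.023 for Tagln and -1.27 for Vim, the stricter Slc4a1 and Aqp6 gate -0.55, -0.028 and -1.57, and the set without Aqp2 and Hsd11b2 cells -0.075 for Tagln and -1.47 for Vim. Vim was at -1.38 without the deepest member.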
